A study of Mus musculus with 39 samples.

Results

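The first 2 days in culture of mouse cerebellar granule cell progenitors are described here across all genes. The 4 RNA libraries were selected by their labels alone: 2 of cells after 2 days in vitro (DIV2) and 2 of the freshly isolated cells (DIV0), out of 39 libraries in the series. The DIV2 cells had been plated and kept with the solvent DMSO, and the DIV0 cells were portions of the isolated progenitors that were put aside without culture. Days in vitro, plating and DMSO therefore changed together between the groups and cannot be told apart. All cells came from cerebella of C57Bl/6J mice at postnatal day 6 to 7 (P6 to P7). Other libraries serve as points of comparison. They are 2 libraries at DIV5 with DMSO, and 5 libraries each from whole cerebellum of Tg(NeuroD1-Egfp-L10a) mice at P12 and at P7. In those mice a tagged ribosomal protein is made under Neurod1 control, and translating ribosome affinity purification (TRAP) pulls down the RNA bound to it, so they hold ribosome-bound RNA while the culture libraries hold total RNA. A further pair of cultures, kept to DIV5 with 100 nM UNC1999, an inhibitor of the histone methyltransferases EZH2 and EZH1, entered the fit to estimate the spread and is not described. In the same way, 5 Neurod1 TRAP libraries at P21 entered the fit of the in vivo comparison and are not described. The labels do not say whether the 2 libraries of a group came from separate animals or cultures, so p-values measure the spread between these libraries, which may be technical.

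Granule cell progenitors divide in the external granule layer of the cerebellum after birth, driven by Sonic hedgehog that Purkinje cells release. Hedgehog binding to Patched frees Smoothened, and Gli transcription factors then raise Mycn, the D-type cyclins and Gli1 itself, while the bHLH factor Atoh1 keeps the progenitor state. Cells that leave the cycle express Neurod1, extend axons, migrate inward along glia and form glutamatergic synapses. Late in this course they take on the GABA-A receptor subunits alpha 6 and delta of mature granule cells. Dissociated cultures of these cells are widely used as a model of cell cycle exit and neuronal differentiation.

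Total counts were 23130103 and 16053007 in the DIV2 libraries and 15943645 and 23025792 in the DIV0 libraries. Levels are given as CPM, counts scaled to a common library size with TMM factors, with the first and second library of a group in that order. They were not divided by gene length, so levels are compared between groups. Where genes are ranked within a group, the rank is by CPM, which also depends on gene length. The correlation of log values across genes was 0.9924 between the DIV2 libraries and 0.9945 between the DIV0 libraries, and 0.898 to 0.901 between the groups. The DIV0 libraries were close to sampling noise: 8.55% of genes lay past a chi-square limit that chance passes for 5%, against 26.6% for the DIV2 pair, so calls were also made with the DIV0 libraries summed as 1 sample. The DIV2 libraries differed from each other in defined gene groups. The second library was higher than the first by a median log2 difference of 0.59 for extracellular matrix and actin genes, 0.53 for vascular, pericyte and meningeal markers, 0.48 for mitosis genes and 0.33 for cyclins and CDKs, against 0 for all tested genes of at least 10 CPM.

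Most of the measured transcriptome differed between DIV2 and DIV0. Of 15978 genes tested, 11398 (71.3%) passed an adjusted p of 0.05 (edgeR quasi-likelihood test, Benjamini-Hochberg over all genes, two-sided). They were split almost evenly, with 5809 genes higher at DIV2 (36.4%) and 5589 lower (35.0%). These shares are the background against which each gene group below is to be read. At an added threshold of 2-fold, 2678 genes were higher (16.8%) and 2198 lower (13.8%). A change of at least 4-fold was seen in 1031 higher and 866 lower genes, and of at least 16-fold in 171 higher and 165 lower genes. The median log2 fold change of all genes was 0.02, and 90% of genes lay between -2.1 and 2.33. In the text, rose and fell refer to genes past the adjusted threshold, at DIV2 relative to DIV0, and ± after a log2 fold change is its standard error from the fit.

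**Figure D1:**
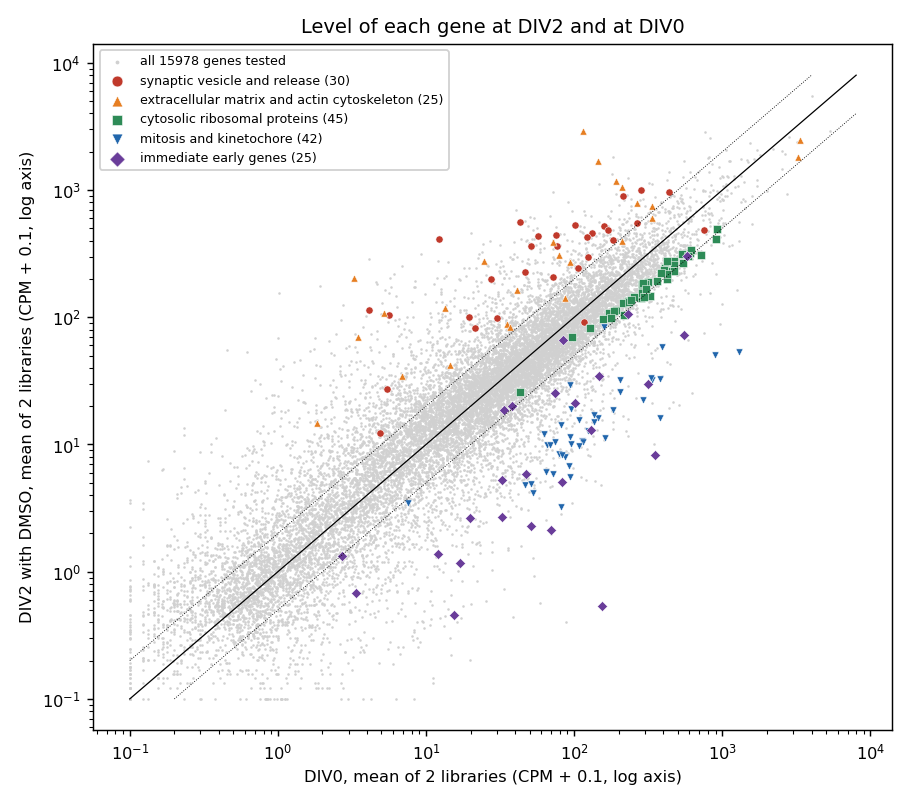
Mean level of each tested gene at DIV2 (vertical axis) against DIV0 (horizontal axis), as the mean CPM plus 0.1 of 2 libraries on log axes, with 5 gene lists in colour, a solid line at equality and dotted lines at 2-fold. Mitosis, immediate early and ribosomal protein genes lie below the line of equality, and synaptic vesicle and extracellular matrix genes lie mostly above it.

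The gene groups moved in different directions. All measured genes of DNA replication (41 of 41), mitosis (42 of 42), cytosolic ribosomal proteins (45 of 45), the nucleolus (25 of 25) and the immediate early response (25 of 25) fell. Synaptic vesicle genes (28 of 30 rose), postsynaptic genes (24 of 27), mature granule cell genes (22 of 25), voltage-gated channels (22 of 28), cholesterol genes (23 of 28) and extracellular matrix genes (23 of 25) mostly rose. Their median log2 fold changes ran from -3.33 for mitosis to 2.89 for mature granule cell genes, against 0.02 for all genes.

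**Figure D2:**
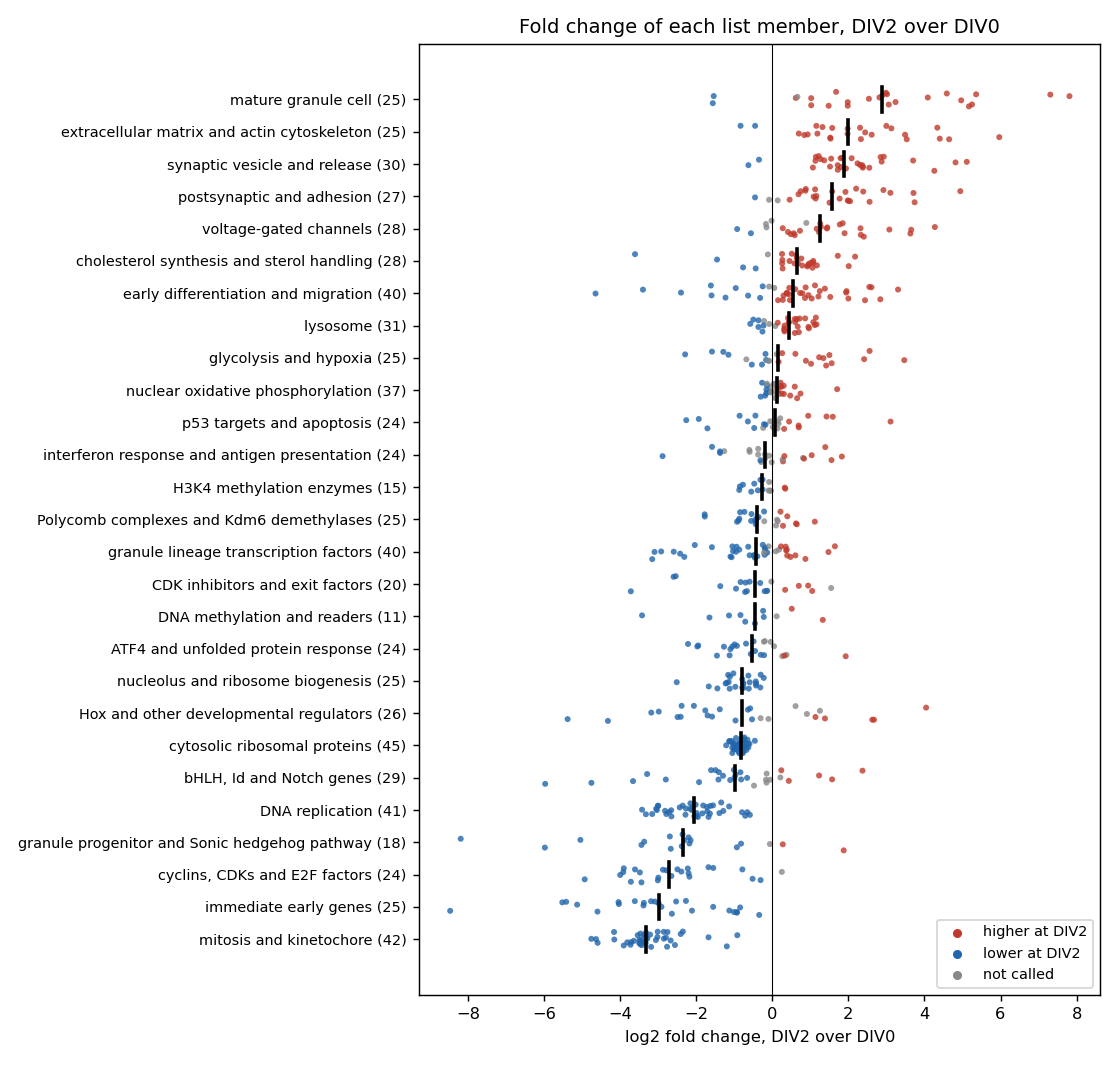
Log2 fold change at DIV2 over DIV0 (horizontal axis) of every tested member of the gene lists (1 row per list, points for members coloured by call, a bar at the median). The rightmost point, Gabra6, is a fitted value against at most 1 count at DIV0. Cell cycle lists lie to the left of 0 and synapse and mature granule cell lists to the right, with medians from -3.33 to 2.89.

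The hedgehog response and progenitor genes fell almost throughout. Of 18 genes of the list 15 fell, against 35.0% of all genes, and 2 rose, against 36.4% (median log2 fold change -2.34). Gli1, the transcription factor that reports hedgehog signalling (chromosome 10, 127329882 to 127341579, mm10), had 0.273 and 0.3305 CPM at DIV2, against 88.8 and 88.2 CPM at DIV0. Atoh1, the bHLH factor that defines the progenitors (chromosome 6, 64729125 to 64731245), had 0.864 and 0.793 CPM at DIV2, against 53.9 and 52.4 CPM at DIV0. In both genes the DIV2 libraries were near 0 and far below either DIV0 library, a drop of 293-fold for Gli1 (log2 fold change -8.19 ± 0.16, adjusted p = 1e-14) and of 63.2-fold for Atoh1 (log2 fold change -5.98 ± 0.18, adjusted p = 7.2e-13). Gli2, the main activator downstream of Smoothened, had 3.86 and 5.49 CPM at DIV2, against 149.8 and 152 CPM at DIV0 (log2 fold change -5.05 ± 0.11). Mycn, a hedgehog target that drives proliferation, had 44.6 and 39.7 CPM at DIV2, against 188 and 187 CPM at DIV0 (log2 fold change -2.15 ± 0.07, adjusted p = 2.1e-12). The transducer gene Smo had 22.1 and 32.1 CPM at DIV2, against 137 and 129 CPM at DIV0. Transducer, transcription factors and targets all fell, and in each the DIV2 libraries lay below both DIV0 libraries.

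The receptors, co-receptors and inhibitors of the pathway moved in both directions. Ptch1, the hedgehog receptor and also a target, had 163 and 160.1 CPM at DIV2, against 284 and 288 CPM at DIV0 (log2 fold change -0.82 ± 0.06). Sufu, an inhibitor of Gli proteins, rose slightly, with 221 and 218 CPM at DIV2, against 183 and 180.2 CPM at DIV0 (log2 fold change 0.28 ± 0.05). The co-receptors moved apart. Gas1 had 14.4 and 16.99 CPM at DIV2, against 80.5 and 81.6 CPM at DIV0. Cdon had 9.36 and 18.2 CPM at DIV2, against 3.18 and 3.95 CPM at DIV0. Boc, which did not pass, had 124 and 121 CPM at DIV2, against 132 and 126 CPM at DIV0 (log2 fold change -0.07 ± 0.05). Cdon had a low level in all 4 libraries and was almost 2 times as high in the second DIV2 library as in the first. Sfrp1, a secreted Wnt inhibitor, fell, with 40.7 and 45.7 CPM at DIV2, against 447 and 442 CPM at DIV0.

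Cyclins, CDKs and E2F factors fell in 23 of 24 genes (median log2 fold change -2.72). The D-type cyclins open the G1 phase and are hedgehog targets. Ccnd2, the main D-type cyclin of these cells, had 77.8 and 99.4 CPM at DIV2, against 963 and 955 CPM at DIV0 (log2 fold change -3.44 ± 0.14, adjusted p = 1.2e-06). Ccnd1 had 15.5 and 18.1 CPM at DIV2, against 77.9 and 75.6 CPM at DIV0 (log2 fold change -2.20 ± 0.09, adjusted p = 1e-11). Ccnd3 was the only gene of the list that did not pass, with 26.1 and 33.4 CPM at DIV2, against 22.5 and 26.8 CPM at DIV0 (log2 fold change 0.25 ± 0.12, adjusted p = 0.092). Without the first DIV2 library 1 gene of the list was called higher. The DIV2 libraries were below both DIV0 libraries by about an order of magnitude for Ccnd2 and above them or level with them for Ccnd3. Cdk4 and Cdk6, the kinases of the D cyclins, differed in size of change. Cdk6 had 13.1 and 16.9 CPM at DIV2, against 124 and 115 CPM at DIV0. Cdk4 had 98.4 and 101 CPM at DIV2, against 315 and 324 CPM at DIV0. The later cyclins also fell. Ccna2, the cyclin of S phase and G2, had 18.7 and 23.4 CPM at DIV2, against 342 and 326 CPM at DIV0 (log2 fold change -4.00 ± 0.09). Ccnb1, the cyclin of mitotic entry, had 12.2 and 19.4 CPM at DIV2, against 232 and 230.1 CPM at DIV0 (log2 fold change -3.91 ± 0.16). E2f8, a repressor that is made as cells divide, fell most of the list, with 2.09 and 3.44 CPM at DIV2, against 82.7 and 80.1 CPM at DIV0 (log2 fold change -4.93 ± 0.14). E2f3 and Cdc25a fell least among the called genes, by log2 fold changes of -0.52 and -0.31.

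The genes of DNA replication and of mitosis fell without exception, 41 of 41 (median log2 fold change -2.05) and 42 of 42 (median -3.33), in every alternative that was run. Among the replication genes, the helicase subunit Mcm2 had 15.5 and 20.6 CPM at DIV2, against 179 and 179 CPM at DIV0 (log2 fold change -3.33 ± 0.09). Mcm3 had 12.95 and 16.99 CPM at DIV2, against 131 and 132 CPM at DIV0. Mcm6 had 27.04 and 30.8 CPM at DIV2, against 239 and 224 CPM at DIV0. All 3 are subunits of the same helicase, and the DIV2 libraries lay far below the DIV0 libraries in each. The polymerase clamp Pcna had 53.5 and 57.6 CPM at DIV2, against 345 and 353 CPM at DIV0 (log2 fold change -2.65 ± 0.06, adjusted p = 2.8e-14). Rrm2, the S phase subunit of ribonucleotide reductase, had 17.5 and 28.8 CPM at DIV2, against 189.7 and 182 CPM at DIV0, and the second DIV2 library was the higher one. The smallest changes were those of Rfc2, a clamp loader subunit, and Orc6, an origin recognition subunit. Rfc2 had 37.95 and 33.8 CPM at DIV2, against 54.5 and 53.9 CPM at DIV0. Orc6 had 25.9 and 27.4 CPM at DIV2, against 43.1 and 40.8 CPM at DIV0. Among the mitosis genes, the proliferation marker Mki67 had 42.9 and 63.1 CPM at DIV2, against 1326 and 1284 CPM at DIV0 (log2 fold change -4.64 ± 0.18, adjusted p = 2.6e-06). Topoisomerase Top2a had 41.9 and 59.2 CPM at DIV2, against 917 and 875 CPM at DIV0. The spindle motor Kif11 had 13.04 and 18.9 CPM at DIV2, against 389 and 367 CPM at DIV0. Racgap1, which acts in cytokinesis, had 28.6 and 34.9 CPM at DIV2, against 335 and 334 CPM at DIV0. In each of these 4 genes the second DIV2 library was higher than the first. The checkpoint gene Bub3 changed least, with 82.5 and 86.5 CPM at DIV2, against 155 and 165 CPM at DIV0 (log2 fold change -0.92 ± 0.06). For all of these genes the DIV2 libraries lay below both DIV0 libraries. None of these levels reached 0. The remaining mitotic RNA was higher in the second DIV2 library, in which vascular and meningeal markers were also higher (7300 CPM in sum, against 4456 CPM in the first), and the part of dividing cells of other types in it was not tested. In libraries of whole cultures, fewer cells of a type and less RNA per cell cannot be told apart.

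The promoters of 4 of these genes are shown because replication and mitosis genes carry different sequence elements at their starts. E2F factors act on replication genes through E2F sites, and the cell cycle genes homology region (CHR), often with CCAAT boxes, is known from genes of G2 and mitosis. The windows hold 250 bases before and 50 after the annotated start, from RefSeq on GRCm38.p6, 5′ to 3′ on the gene's strand. They were taken at chr1:128359656-128359955 (minus strand) for Mcm6, chr1:20820263-20820562 (minus) for Mcm3, chr15:99651607-99651906 (minus) for Racgap1 and chr2:164769679-164769978 (plus) for Ube2c. Capitals mark matches of the E2F letters in the first 2 and of TTTGAA and CCAAT, either strand, in the last 2. The genes were taken in order of p from called members with a single window that holds the E2F letters (replication) or TTTGAA (mitosis). Their E2F and TTTGAA matches were therefore fixed by the choice, and the windows serve as examples only.
Mcm6: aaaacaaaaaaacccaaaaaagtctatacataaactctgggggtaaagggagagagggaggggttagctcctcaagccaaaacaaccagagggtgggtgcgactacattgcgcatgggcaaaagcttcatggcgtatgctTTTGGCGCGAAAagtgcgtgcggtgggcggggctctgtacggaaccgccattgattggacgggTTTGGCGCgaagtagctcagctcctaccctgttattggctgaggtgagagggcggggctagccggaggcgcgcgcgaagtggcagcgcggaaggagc
Mcm3: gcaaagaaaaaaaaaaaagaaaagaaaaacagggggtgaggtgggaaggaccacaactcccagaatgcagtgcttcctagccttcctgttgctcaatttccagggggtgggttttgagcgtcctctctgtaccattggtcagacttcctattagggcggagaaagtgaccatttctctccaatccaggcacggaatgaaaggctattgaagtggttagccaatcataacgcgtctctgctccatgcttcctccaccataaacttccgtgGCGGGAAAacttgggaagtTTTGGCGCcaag
Racgap1: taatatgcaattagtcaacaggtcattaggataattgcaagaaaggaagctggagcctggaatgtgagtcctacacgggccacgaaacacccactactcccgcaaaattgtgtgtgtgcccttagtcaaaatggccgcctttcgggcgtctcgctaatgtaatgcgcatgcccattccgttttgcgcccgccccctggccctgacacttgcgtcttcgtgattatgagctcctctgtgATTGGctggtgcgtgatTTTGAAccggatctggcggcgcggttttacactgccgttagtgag
Ube2c: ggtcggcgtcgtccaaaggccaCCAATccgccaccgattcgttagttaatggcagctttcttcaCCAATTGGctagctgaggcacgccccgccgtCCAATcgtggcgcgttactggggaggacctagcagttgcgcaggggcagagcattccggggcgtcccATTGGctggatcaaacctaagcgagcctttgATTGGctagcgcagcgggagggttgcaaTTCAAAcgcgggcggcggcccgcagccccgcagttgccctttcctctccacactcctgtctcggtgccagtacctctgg
In the Mcm6 window E2F matches start at -110, -106 and -47 relative to the start, and in the Mcm3 window at +20 and +39. The Racgap1 window has TTTGAA at +6, and the Ube2c window at -29 beside 6 CCAAT matches.

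Across the lists the motifs divided along the same line. A match to TTTCCCGC, TTTGGCGC, TTTCGCGC or TTTGCCGC on either strand stood in 15 of 39 replication windows (38.5%, from 32 of 41 genes with a window), in 7 of 21 windows of cyclins, CDKs and E2F factors (33.3%) and in 2.63% of mitosis windows. All RefSeq windows had it in 2.26% and windows of the genes tested in 3.63%. The CHR letters TTTGAA stood in 30 of 38 mitosis windows (78.9%, from 35 of 42 genes) and in 12.8% of replication windows, against 17.9% of all windows and 12.3% of windows of tested genes. CHR and CCAAT together were found in 68.4% of mitosis windows and in 6.95% of all windows. In the genes that fell at least 2-fold an E2F match was present in 5.84% of windows, and in those that rose at least 2-fold in 2.41%. These are letter matches and not measured binding.

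The inhibitors of cyclin-dependent kinases and other exit factors did not rise as a group. Of 20 genes 4 rose and 13 fell (median log2 fold change -0.46). Cdkn1b, which encodes p27, the main kinase inhibitor of granule cell exit, had 457 and 430.0 CPM at DIV2, against 550.4 and 556 CPM at DIV0 (log2 fold change -0.32 ± 0.05, adjusted p = 8.9e-05). Its DIV2 libraries were slightly below both DIV0 libraries. Cdkn1a, which encodes p21, rose, with 104 and 118 CPM at DIV2, against 64.8 and 71.5 CPM at DIV0 (log2 fold change 0.70 ± 0.07), and Cdkn1c, which encodes p57, fell, with 8.41 and 12.8 CPM at DIV2, against 16.8 and 19.9 CPM at DIV0 (log2 fold change -0.84 ± 0.17, adjusted p = 0.0012). Cdkn2c, an inhibitor of CDK4 and CDK6 that is made in dividing cells, had 10.9 and 13.4 CPM at DIV2, against 74.9 and 70.4 CPM at DIV0. Btg2, an antiproliferative gene switched on at neurogenic divisions, had 21.5 and 23.2 CPM at DIV2, against 129 and 129.8 CPM at DIV0 (log2 fold change -2.54 ± 0.08), while its relative Btg1 rose, with 324 and 305 CPM at DIV2, against 252 and 246 CPM at DIV0. These relatives thus moved in opposite directions, as did a second pair. Among the Mad factors that oppose Myc, Mxd3 fell, with 2.14 and 2.97 CPM at DIV2, against 31.7 and 34.05 CPM at DIV0, and Mxd4 rose, with 82.8 and 78.7 CPM at DIV2, against 38.2 and 39.98 CPM at DIV0.

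More transcription factors of the lineage fell than rose. Among 29 bHLH, Id and Notch genes 18 fell and 5 rose (median log2 fold change -0.97), and among 40 further granule lineage factors 26 fell and 10 rose (median -0.43). Neurod1, the factor of differentiating granule cells (chromosome 2, 79452637 to 79456636), was high in all 4 libraries, with 1753 and 1701 CPM at DIV2, against 1476 and 1457 CPM at DIV0 (log2 fold change 0.24 ± 0.05, adjusted p = 0.0003). Its DIV2 libraries were above both DIV0 libraries, but the call was lost when the DIV0 libraries were summed as 1 sample (log2 fold change 0.15, adjusted p = 0.054, with adjusted p from 7.7e-05 to 0.054 over all alternatives). Neurod2 also rose, with 609 and 585 CPM at DIV2, against 197 and 204 CPM at DIV0 (log2 fold change 1.57 ± 0.05). Neurog1, an early proneural factor, fell, with 1 and 0 counts at DIV2, against 29 and 49 counts at DIV0. It was near the limit of counting at DIV2. Factors of newborn neurons fell as well. Nhlh1, a bHLH factor of newly postmitotic neurons, had 47.04 and 49.2 CPM at DIV2, against 331 and 339 CPM at DIV0 (log2 fold change -2.80 ± 0.06, adjusted p = 2e-14). Nhlh2 had 129 and 115 CPM at DIV2, against 465 and 462 CPM at DIV0. Insm1, a zinc finger factor of newborn neurons, had 162 and 167 CPM at DIV2, against 1244 and 1253 CPM at DIV0 (log2 fold change -2.92 ± 0.05, adjusted p = 6.3e-15).

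**Figure D3:**
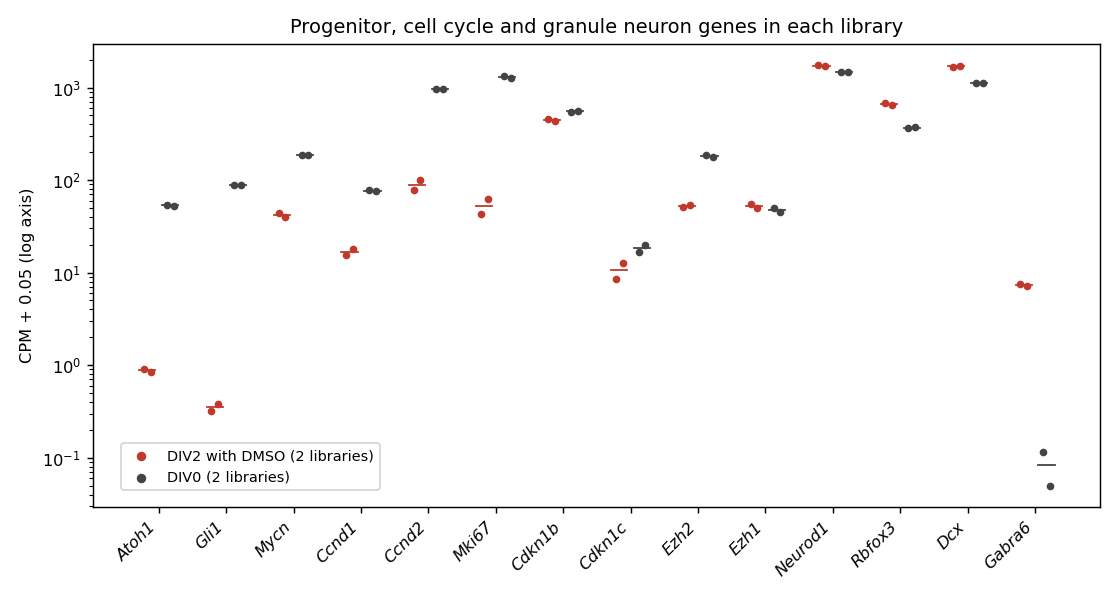
CPM (log axis) of the 14 genes named by rule in each DIV2 and DIV0 library, 1 point per library and a line at the mean, after adding 0.05 CPM. Atoh1 and Gli1 are below 1 CPM at DIV2 and above 50 CPM at DIV0, while Rbfox3 and Dcx are higher at DIV2.

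Notch pathway genes moved in both directions. Notch1 fell, with 30.2 and 31.8 CPM at DIV2, against 65.7 and 67.6 CPM at DIV0, and Notch2, the receptor that is prominent in granule progenitors, rose, with 142 and 137 CPM at DIV2, against 57.4 and 61.8 CPM at DIV0 (log2 fold change 1.23 ± 0.06). The target Hes1 had 4.91 and 6.94 CPM at DIV2, against 10.4 and 10.1 CPM at DIV0, and fell, while Hes5 had 9.18 and 8.33 CPM at DIV2, against 1.62 and 1.75 CPM at DIV0, and rose (log2 fold change 2.37 ± 0.17). The E proteins, partners of the proneural bHLH factors, fell. Tcf3 had 76.8 and 74.03 CPM at DIV2, against 207 and 218 CPM at DIV0. Tcf12 had 146 and 143 CPM at DIV2, against 382 and 388 CPM at DIV0. Id1 and Id2, which sequester E proteins, fell by log2 fold changes of -1.30 and -0.97, while Id4 rose by 0.43 and Id3 did not pass (0.21 ± 0.11).

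Among the other lineage factors the zinc finger factors Zic1 and Zic2 rose. Zic1 had 2386 and 2312 CPM at DIV2, against 1526 and 1559.9 CPM at DIV0. Zic2 had 992 and 969 CPM at DIV2, against 761 and 763 CPM at DIV0. Rbfox3, the splicing factor known as the neuronal marker NeuN, had 686 and 653 CPM at DIV2, against 362 and 371 CPM at DIV0 (log2 fold change 0.87 ± 0.06, adjusted p = 3.5e-09). Mef2a, a factor of synapse maturation, had 442 and 431 CPM at DIV2, against 154 and 160.3 CPM at DIV0 (log2 fold change 1.48 ± 0.05). Ebf3, Lhx1 and Sox11 fell. Ebf3 had 65.3 and 65.97 CPM at DIV2, against 584 and 587 CPM at DIV0. Lhx1 had 33.8 and 34.6 CPM at DIV2, against 169.8 and 170.1 CPM at DIV0. Sox11, a factor of immature neurons, had 224 and 215 CPM at DIV2, against 917 and 886 CPM at DIV0. In these 3 genes the DIV2 libraries lay far below both DIV0 libraries. Pax6, which progenitors and young granule cells share, also fell, with 469.6 and 439.9 CPM at DIV2, against 619 and 632 CPM at DIV0 (log2 fold change -0.46 ± 0.05). The nuclear factor I genes, known for their part in granule cell maturation, went different ways. Nfia had 427 and 445 CPM at DIV2, against 964 and 906 CPM at DIV0, and fell, whereas Nfix did not pass, with 1245 and 1317 CPM at DIV2, against 1214 and 1190.2 CPM at DIV0 (log2 fold change 0.09 ± 0.05).

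Early differentiation and migration genes rose in 28 of 40 cases and fell in 10 (median log2 fold change 0.53). Dcx, the microtubule protein of migrating neurons, had 1672 and 1728 CPM at DIV2, against 1119.9 and 1119 CPM at DIV0 (log2 fold change 0.60 ± 0.06, adjusted p = 8.1e-07). Axonal cytoskeleton and adhesion genes rose too. The axonal tau gene Mapt had 1229 and 1252 CPM at DIV2, against 229.8 and 228 CPM at DIV0 (log2 fold change 2.44 ± 0.05, adjusted p = 1.5e-14). Cntn1 had 679.6 and 693 CPM at DIV2, against 95.1 and 96.7 CPM at DIV0 (log2 fold change 2.84 ± 0.05). L1cam had 838 and 825 CPM at DIV2, against 213 and 219.8 CPM at DIV0. These 3 genes encode proteins of growing axons, and the 2 libraries of each group differed little. The tubulin genes differed among themselves. Tubb2a had 931 and 897 CPM at DIV2, against 229.7 and 228 CPM at DIV0. Tubb3 had 439 and 417 CPM at DIV2, against 537 and 532 CPM at DIV0, and fell (log2 fold change -0.32 ± 0.05). The stathmin genes moved in opposite directions as well. Stmn2, which regulates microtubules in growth cones, had 1260.5 and 1252 CPM at DIV2, against 549 and 536 CPM at DIV0. Stmn1, its paralog in dividing cells, had 739 and 712 CPM at DIV2, against 1411 and 1415 CPM at DIV0.

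Guidance genes include the largest fall of this list. Dcc, a netrin receptor, had 19.95 and 20.6 CPM at DIV2, against 514 and 503 CPM at DIV0 (log2 fold change -4.65 ± 0.08, adjusted p = 6.3e-15). Its ligand gene Ntn1 had 24.5 and 27.7 CPM at DIV2, against 139.6 and 135 CPM at DIV0. Receptor and ligand fell together. Unc5b and Unc5c, the other class of netrin receptors, rose. Unc5b had 306 and 319 CPM at DIV2, against 116 and 124 CPM at DIV0. Unc5c had 612 and 629.8 CPM at DIV2, against 511 and 502 CPM at DIV0. Cxcr4, the receptor that holds progenitors near the meninges, had 4.77 and 5.88 CPM at DIV2, against 54.96 and 56.1 CPM at DIV0 (log2 fold change -3.40 ± 0.11). Robo1 fell and Robo2 rose, by log2 fold changes of -1.60 and 0.88. The cell adhesion gene Chl1 had 201 and 208 CPM at DIV2, against 33.5 and 33.6 CPM at DIV0. The laminin receptor subunit Itga3 had 76.2 and 76.9 CPM at DIV2, against 8.05 and 7.501 CPM at DIV0 (log2 fold change 3.31 ± 0.08). Both rose several-fold, and the astrotactin genes rose too. Astn1, which neurons use in migration along glia, had 221 and 223 CPM at DIV2, against 117 and 113 CPM at DIV0. Astn2 had 332 and 340.3 CPM at DIV2, against 193 and 195 CPM at DIV0.

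Mature granule cell genes rose in 22 of 25 cases, with a median log2 fold change of 2.89. Gabra6, the alpha 6 GABA-A receptor subunit that marks mature granule cells (chromosome 11, 42306437 to 42321072), had 163 and 109 counts at DIV2, against 1 and 0 counts at DIV0, that is 7.41 and 7.205 CPM at DIV2 and 0.0649 and 0 CPM at DIV0. Its level was low at DIV2, and no fold change is given because DIV0 had at most 1 count. Gabrd, the delta subunit, had 55.9 and 55.5 CPM at DIV2, against 0.389 and 0.314 CPM at DIV0 (log2 fold change 7.31 ± 0.14, adjusted p = 6.9e-15). The metabotropic glutamate receptor Grm4 had 153 and 172 CPM at DIV2, against 4.93 and 5.39 CPM at DIV0 (log2 fold change 4.97 ± 0.10). Both receptor genes had low levels in the DIV0 libraries. The chloride exporter Slc12a5, whose rise marks the maturation of GABA responses, had 93.4 and 95.7 CPM at DIV2, against 2.14 and 2.96 CPM at DIV0. The calcium buffer Calb2 had 185 and 179 CPM at DIV2, against 5.65 and 3.55 CPM at DIV0. For both the DIV0 libraries were low. The vesicular glutamate transporters of granule cells both rose. Slc17a7 had 200.4 and 181 CPM at DIV2, against 27.1 and 27.2 CPM at DIV0. Slc17a6 had 229 and 231 CPM at DIV2, against 116 and 111 CPM at DIV0. The synaptic organizer Cbln1 had 345 and 406 CPM at DIV2, against 129 and 139.7 CPM at DIV0. The protocadherin Fat2 had 1274 and 1411 CPM at DIV2, against 179 and 183 CPM at DIV0 (log2 fold change 2.89 ± 0.06). NMDA receptor subunits of mature cells rose to low levels. Grin2a had 10.4 and 9.72 CPM at DIV2, against 1.04 and 1.08 CPM at DIV0. Grin2c had 4.95 and 6.41 CPM at DIV2, against 1.56 and 1.303 CPM at DIV0. Tiam1, a Rac activator, fell, with 28.3 and 28.2 CPM at DIV2, against 83.5 and 83.7 CPM at DIV0, and the only other gene that fell was Nrgn, below 1 CPM in all 4 libraries. That count of 2 was 1 without the second DIV0 library, without the second DIV2 library, under DESeq2 and under a stricter filter.

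Synaptic vesicle and release genes rose in 28 of 30 cases (median log2 fold change 1.88) and fell in 2, the same counts in every alternative. Of the synaptotagmin genes, Syt4, Syt2 and Syt1 rose. Syt4, an early synaptotagmin, had 386 and 439 CPM at DIV2, against 13.6 and 10.6 CPM at DIV0 (log2 fold change 5.11 ± 0.10, adjusted p = 1.9e-12). Syt2 had 111 and 115 CPM at DIV2, against 4.02 and 3.998 CPM at DIV0. Syt1 had 368 and 355 CPM at DIV2, against 76.4 and 76.7 CPM at DIV0. In all 3 the DIV2 libraries were several times above the DIV0 libraries. Syngr1, a vesicle membrane protein, had 557 and 558 CPM at DIV2, against 43.2 and 42.6 CPM at DIV0 (log2 fold change 3.70 ± 0.06). The SNARE genes rose together. Snap25 had 543 and 514 CPM at DIV2, against 99.1 and 104 CPM at DIV0. Vamp2 had 503 and 536 CPM at DIV2, against 156 and 159 CPM at DIV0. The active zone genes Bsn and Pclo rose by log2 fold changes of 1.13 ± 0.05 and 1.79 ± 0.05, and the priming factor Unc13a by 2.09 ± 0.09. The exceptions were Syt11, with 482 and 483 CPM at DIV2, against 746 and 747 CPM at DIV0, and Rims2, with 85.4 and 96.8 CPM at DIV2, against 116 and 116 CPM at DIV0. Vesicle RNA was thus present at DIV0 in most cases and several times higher at DIV2.

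Postsynaptic genes rose in 24 of 27 cases (median 1.57) and voltage-gated channel genes in 22 of 28 (median 1.24). Grin1, the obligatory NMDA receptor subunit, had 289 and 293 CPM at DIV2, against 22.00 and 22.4 CPM at DIV0 (log2 fold change 3.71 ± 0.08, adjusted p = 1.8e-14). Grin2b, the juvenile subunit, had 113 and 114 CPM at DIV2, against 27.3 and 27.7 CPM at DIV0. The AMPA receptor subunits split. Gria2 had 899.7 and 757 CPM at DIV2, against 274 and 284 CPM at DIV0, and rose. Gria1 had 21.6 and 25.5 CPM at DIV2, against 32.5 and 31.7 CPM at DIV0, and fell. Camk4, the calcium-dependent kinase of granule cell nuclei, had 950.2 and 967 CPM at DIV2, against 76.2 and 67.6 CPM at DIV0 (log2 fold change 3.74 ± 0.07). Grm5, a metabotropic glutamate receptor, had 169 and 177 CPM at DIV2, against 6.36 and 5.08 CPM at DIV0 (log2 fold change 4.94 ± 0.11). In both the DIV2 libraries were more than 10 times the DIV0 libraries. The scaffold gene Shank1 had 151 and 162 CPM at DIV2, against 19.9 and 21.3 CPM at DIV0, and Homer1 did not pass, with 66.4 and 71.98 CPM at DIV2, against 62.5 and 62.8 CPM at DIV0. Among the channels, Cacna1a, the P/Q-type calcium channel of release, had 587 and 558 CPM at DIV2, against 44.3 and 48.02 CPM at DIV0 (log2 fold change 3.63 ± 0.07). Cacna1g, a T-type channel, had 281 and 263 CPM at DIV2, against 13.95 and 14.1 CPM at DIV0 (log2 fold change 4.27 ± 0.08, adjusted p = 6.4e-15). The sodium channel Scn2a had 87.5 and 91.2 CPM at DIV2, against 6.75 and 7.37 CPM at DIV0. Kcnq3, a potassium channel, was among the channel genes that fell, with a log2 fold change of -0.93.

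The chromatin lists had medians nearer to 0. Of 25 genes of the Polycomb complexes and H3K27 demethylases 15 fell and 6 rose (median log2 fold change -0.40). The 6 became 3 without the first DIV2 library. Polycomb complex PRC2 places the H3K27me3 mark with EZH2 or EZH1 as its enzyme. Ezh2 (chromosome 6, 47530274 to 47595270) had 51.8 and 54.1 CPM at DIV2, against 186 and 176 CPM at DIV0 (log2 fold change -1.78 ± 0.07, adjusted p = 1.7e-11). Ezh1 did not pass, with 55.1 and 49.7 CPM at DIV2, against 49.6 and 45.6 CPM at DIV0 (log2 fold change 0.15 ± 0.07, adjusted p = 0.081). For Ezh2 the DIV2 libraries were far below both DIV0 libraries, and for Ezh1 they lay at or just above them. The other PRC2 core subunits also fell, with 122 and 113 CPM at DIV2, against 227 and 221 CPM at DIV0 for Suz12 and a log2 fold change of -0.44 ± 0.07 for Eed. Both H3K27 demethylase genes fell, Kdm6b with 239 and 243 CPM at DIV2, against 354 and 356 CPM at DIV0, and Kdm6a by a log2 fold change of -0.22. Of the chromobox genes of the other complex, PRC1, Cbx2 fell, with 14.5 and 15.4 CPM at DIV2, against 51.2 and 51.3 CPM at DIV0, and Cbx6 rose, with 110.1 and 109 CPM at DIV2, against 71.5 and 69.2 CPM at DIV0.

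Of 15 H3K4 methylation genes 9 fell and 2 rose (median -0.26). The demethylase Kdm1a had 199 and 186 CPM at DIV2, against 358 and 346 CPM at DIV0, and the methyltransferase Kmt2c rose, with 461 and 441 CPM at DIV2, against 354 and 365 CPM at DIV0. The list holds enzymes that add the mark and enzymes that remove it, so its count does not follow a single activity. Of 11 DNA methylation genes 8 fell and 2 rose (median -0.46). The maintenance genes, which act at replication, fell. Uhrf1 had 12.9 and 22.4 CPM at DIV2, against 179.6 and 189 CPM at DIV0. Dnmt1 had 197 and 194 CPM at DIV2, against 319.6 and 322 CPM at DIV0. The de novo methyltransferase Dnmt3a rose, with 374 and 377 CPM at DIV2, against 150.0 and 149 CPM at DIV0 (log2 fold change 1.33 ± 0.05, adjusted p = 4.7e-12).

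Hox genes and other developmental regulators, which Polycomb silences in many tissues, mostly fell or had too few reads to be tested. Of 36 such genes 10 did not reach the count filter, 8 of them Hox genes, with at most 0.463 CPM in any of the 4 libraries. Of the 26 tested 16 fell and 5 rose (median -0.81), and the 5 became 3 without the second DIV0 library and in a fit of the 4 libraries alone. Foxd1, Msx1, Gata6 and Foxc1 were among the genes that rose. Foxc1 had 19.1 and 36.7 CPM at DIV2, against 11.8 and 12.8 CPM at DIV0. Foxd1 had 12.9 and 24.1 CPM at DIV2, against 2.34 and 3.14 CPM at DIV0. In both the second DIV2 library was almost 2 times the first. The vascular, pericyte and meningeal markers, which summed to 4456 and 7300.3 CPM at DIV2, were also higher in the second library, and the part of such cells in these values was not tested. Among those that fell, Pax3 had 7.45 and 6.94 CPM at DIV2, against 37.8 and 38.99 CPM at DIV0 and Irx1 had 5.91 and 5.22 CPM at DIV2, against 30.04 and 28.7 CPM at DIV0.

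All 45 cytosolic ribosomal protein genes fell, over a narrow range of log2 fold changes with a median of -0.83. The largest fall was that of Rpsa, with 295 and 327 CPM at DIV2, against 725 and 715 CPM at DIV0 (log2 fold change -1.21 ± 0.06), and the smallest that of Rpl38, with 72.2 and 67.8 CPM at DIV2, against 93.5 and 99.3 CPM at DIV0 (log2 fold change -0.46 ± 0.06). Rpl4 had 391 and 439 CPM at DIV2, against 913 and 895 CPM at DIV0. The translation factor Eef1a1, the gene with most reads at DIV0, had 2754 and 3037 CPM at DIV2, against 5379.7 and 5317 CPM at DIV0. All 25 genes of the nucleolus and of ribosome biogenesis fell too (median -0.79). Npm1, a nucleolar chaperone, had 193 and 225 CPM at DIV2, against 559 and 576 CPM at DIV0 (log2 fold change -1.45 ± 0.07). Nop58, of the ribosomal RNA methylation complex, had 42.2 and 42.2 CPM at DIV2, against 136 and 133 CPM at DIV0. Ncl, nucleolin, had 409 and 488 CPM at DIV2, against 777 and 774 CPM at DIV0. Myc, which drives ribosome synthesis, fell furthest of this list, with 5.18 and 8.13 CPM at DIV2, against 36.7 and 37.2 CPM at DIV0 (log2 fold change -2.51 ± 0.14). The ribosomal protein and nucleolus lists fell whole, 45 of 45 and 25 of 25, in every alternative.

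Cholesterol genes rose in 23 of 28 cases and fell in 4 (median 0.66). Hmgcs1, the enzyme that makes HMG-CoA, had 1424 and 1372 CPM at DIV2, against 698 and 675 CPM at DIV0 (log2 fold change 1.03 ± 0.05, adjusted p = 1.1e-10). Kinases of later steps rose too. Mvk had 92.5 and 84.2 CPM at DIV2, against 22.00 and 21.96 CPM at DIV0 (log2 fold change 2.01 ± 0.07). Pmvk had 62.3 and 57.97 CPM at DIV2, against 19.3 and 17.4 CPM at DIV0. Sqle, squalene epoxidase, had 485 and 466 CPM at DIV2, against 229 and 223 CPM at DIV0. Srebf2, the transcription factor of the pathway, had 723 and 719.7 CPM at DIV2, against 471 and 463 CPM at DIV0. The exporter Abca1 fell, with 32.8 and 36.6 CPM at DIV2, against 95.6 and 93.8 CPM at DIV0.

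Glycolysis genes moved in both directions. Of 25 glycolysis and hypoxia genes 13 rose and 8 fell (median 0.16). Hexokinase 1, the neuronal isoform, rose, with 332 and 359.7 CPM at DIV2, against 58.3 and 59.2 CPM at DIV0 for Hk1 (log2 fold change 2.56 ± 0.06, adjusted p = 4.2e-14), while Hk2, the isoform of proliferating progenitors, fell, with 7.73 and 11.2 CPM at DIV2, against 22.8 and 22.5 CPM at DIV0 (log2 fold change -1.29 ± 0.16). The enolases moved the same way. The neuronal Eno2 had 52.6 and 53.1 CPM at DIV2, against 4.41 and 5.03 CPM at DIV0 (log2 fold change 3.47 ± 0.09). The ubiquitous Eno1 had 284 and 339.9 CPM at DIV2, against 353 and 353 CPM at DIV0 (log2 fold change -0.18 ± 0.07). Of the glucose transporters, the neuronal Slc2a3 had 91.4 and 95.5 CPM at DIV2, against 48.3 and 52.7 CPM at DIV0. Slc2a1, which is also strong in endothelium, had 19.3 and 19.5 CPM at DIV2, against 92.6 and 97.2 CPM at DIV0. Endothelial markers such as Cldn5 fell as well, and their part in the value of Slc2a1 was not tested. Pfkp, an isoform of phosphofructokinase, had 135 and 122 CPM at DIV2, against 24.1 and 24.1 CPM at DIV0.

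Nuclear genes of oxidative phosphorylation changed little. Of 37 genes 15 rose and 6 fell (median 0.11), and 16 did not pass. The number that rose depended on the libraries: it was 5 and 8 without the first or second DIV0 library, 7 and 11 without the first or second DIV2 library, 7 under DESeq2 and 6 with the DIV0 libraries summed. The exception in size was Ppargc1a, a coactivator of mitochondrial genes, with 18.5 and 21.8 CPM at DIV2, against 6.75 and 5.66 CPM at DIV0 (log2 fold change 1.70 ± 0.13). Cox6a1 had 213 and 194 CPM at DIV2, against 120.1 and 124 CPM at DIV0. Atp5b, a subunit of ATP synthase, had 696 and 757 CPM at DIV2, against 813 and 805 CPM at DIV0.

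Lysosome genes rose in 22 of 31 cases and fell in 6 (median 0.43). The cathepsins Ctsd and Ctsb rose. Ctsd had 308 and 326 CPM at DIV2, against 148 and 145 CPM at DIV0. Ctsb had 425 and 459 CPM at DIV2, against 229.6 and 229 CPM at DIV0. Grn, progranulin, had 129 and 126 CPM at DIV2, against 58.6 and 55.7 CPM at DIV0, and Lamp2 fell, with 70.1 and 83.7 CPM at DIV2, against 109 and 108 CPM at DIV0. Of 24 interferon response and antigen presentation genes 7 rose and 5 fell (median -0.19). Stat2, a signal transducer of the response, rose. It had 126 and 108 CPM at DIV2, against 37.1 and 42.5 CPM at DIV0. Effector genes stayed near the limit of counting. Isg15 had 0.409 and 0.859 CPM at DIV2, against 0.908 and 0.674 CPM at DIV0. Ifit1 had 0.545 and 0.859 CPM at DIV2, against 0.908 and 0.314 CPM at DIV0, and neither passed. Microglial markers, whose cells carry many of these genes, were 164 and 169 CPM in sum at DIV2, against 135 and 130.1 CPM at DIV0, and their part was not tested.

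All 25 immediate early genes fell (median -2.99), and 24 of 25 when the first DIV0 library was left out. These genes respond within minutes to growth factors, activity or dissociation. Fosb had 0.409 and 0.463 CPM at DIV2, against 153 and 158 CPM at DIV0 (log2 fold change -8.47 ± 0.14, adjusted p = 5.1e-15), the largest fitted fall of the list. Egr1 had 7.77 and 8.59 CPM at DIV2, against 340.4 and 357 CPM at DIV0 (log2 fold change -5.42 ± 0.11). Fos had 32.8 and 26.9 CPM at DIV2, against 314 and 315 CPM at DIV0. Jun had 74.4 and 70.5 CPM at DIV2, against 547 and 547 CPM at DIV0 (log2 fold change -2.92 ± 0.06, adjusted p = 2e-14). For each of these the DIV0 libraries were high and close to each other, and the DIV2 libraries were low. The phosphatase gene Dusp6, a feedback inhibitor of ERK, changed least, with 66.7 and 65.5 CPM at DIV2, against 84.2 and 83.7 CPM at DIV0. The stress factor Atf3 had 1.73 and 2.31 CPM at DIV2, against 68.7 and 70.1 CPM at DIV0 (log2 fold change -5.13 ± 0.13). DIV0 is also the group collected right after dissociation, so time in culture and time since dissociation cannot be told apart.

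Genes of ATF4 signalling and the unfolded protein response fell in 16 of 24 cases and rose in 2 (median -0.53). The 2 became 1 without the first DIV0 library or without the second DIV2 library. Atf4 itself had 231 and 223 CPM at DIV2, against 497 and 494 CPM at DIV0 (log2 fold change -1.12 ± 0.06). Its target Mthfd2, of mitochondrial folate metabolism, had 15.95 and 17.5 CPM at DIV2, against 75.3 and 79.4 CPM at DIV0, and the chaperone Hspa5 did not pass, with 308 and 385 CPM at DIV2, against 399 and 395 CPM at DIV0. Of 24 p53 targets and apoptosis genes 8 rose and 9 fell (median 0.07), near the shares of all genes (36.4% and 35.0%). Trp53, which encodes p53, had 30.7 and 34.9 CPM at DIV2, against 154 and 159.7 CPM at DIV0 (log2 fold change -2.26 ± 0.08, adjusted p = 3.1e-12). Other members of the list moved in both directions. Ccng1 had 68.7 and 80.7 CPM at DIV2, against 27.8 and 27.7 CPM at DIV0. Phlda3 had 8.36 and 12.4 CPM at DIV2, against 1.36 and 1.03 CPM at DIV0 (log2 fold change 3.11 ± 0.24). Bax had 75.7 and 73.6 CPM at DIV2, against 58.98 and 61.4 CPM at DIV0. Bcl2l1, which protects neurons from it, had 196 and 204 CPM at DIV2, against 108 and 101 CPM at DIV0 (log2 fold change 0.94 ± 0.05). Pmaip1 and Eda2r fell, by log2 fold changes of -1.71 and -1.93.

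Markers of other cell types show which RNA besides that of granule cells the libraries held. The 11 granule lineage markers summed to 8358 and 8048 CPM at DIV2, against 7078 and 7143 CPM at DIV0. They did not move together: 6 rose and 4 fell, against 36.4% and 35.0% of all genes (median log2 fold change 0.24). The 16 vascular, pericyte and meningeal markers summed to 4456 and 7300 CPM at DIV2, against 1287 and 1289 CPM at DIV0. The sum at DIV2 was carried by collagens, while endothelial genes fell. Col1a1 had 2132 and 3652 CPM at DIV2, against 117 and 114 CPM at DIV0 (log2 fold change 4.65 ± 0.32). Col3a1 had 862 and 1267 CPM at DIV2, against 216 and 207 CPM at DIV0. The endothelial junction gene Cldn5 had 0.545 and 0.397 CPM at DIV2, against 58.6 and 58.7 CPM at DIV0 (log2 fold change -6.90 ± 0.22, adjusted p = 1.7e-12). Pecam1 had 1.36 and 1.39 CPM at DIV2, against 33.1 and 38.00 CPM at DIV0. The VEGF receptor Kdr had 2.32 and 2.58 CPM at DIV2, against 63.3 and 65.9 CPM at DIV0. Of the 16 markers 4 rose and 11 fell (median -2.69). Hemoglobin genes also fell, with 12 and 2 counts at DIV2, against 588 and 854 counts at DIV0, for Hbb-bs, and 1.32 and 1.06 CPM at DIV2, against 54.2 and 51.1 CPM at DIV0 for Hba-a2. All 3 erythrocyte markers in the table fell.

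Glial markers moved in several directions. Each count given here is to be read beside the shares of all genes, 36.4% higher and 35.0% lower. The 15 astrocyte markers summed to 1555 and 1678 CPM at DIV2, against 1365 and 1350.1 CPM at DIV0. Of these 6 rose and 6 fell, near those shares. Gfap, which reactive astrocytes make, had 396 and 398 CPM at DIV2, against 46.3 and 48.7 CPM at DIV0 (log2 fold change 3.06 ± 0.09, adjusted p = 4.8e-10). Sox9 had 24.7 and 25.2 CPM at DIV2, against 119 and 119 CPM at DIV0. The oligodendrocyte lineage markers summed to 469.8 and 478 CPM at DIV2, against 957 and 959 CPM at DIV0. Of 13 tested 11 fell and 1, Mog, rose; Mog did not pass in 6 of the alternatives. Gpr17, of the committed precursors, had 5.68 and 6.54 CPM at DIV2, against 36.8 and 38.7 CPM at DIV0 (log2 fold change -2.64 ± 0.12). Of 14 microglia markers 9 rose, though fewer were called higher when any 1 DIV0 or DIV2 library was left out. The 4 that fell include P2ry12, with 0.818 and 0.793 CPM at DIV2, against 3.05 and 3.73 CPM at DIV0. Of 7 Purkinje markers 4 rose and 2 fell, and the sum was 65.9 and 75.6 CPM at DIV2, against 94.0 and 93.6 CPM at DIV0. Of 9 GABAergic interneuron markers 4 rose and 4 fell, with sums of 316 and 309 CPM at DIV2, against 267 and 259.7 CPM at DIV0. Of 5 unipolar brush cell markers 1 rose, or 2 without the first DIV2 library, and 1 fell, and the sum was 359 and 372 CPM at DIV2, against 150.3 and 145 CPM at DIV0. Eomes, its defining factor, fell, with 6.54 and 7.205 CPM at DIV2, against 25.8 and 26.2 CPM at DIV0. Of 7 ependymal and choroid plexus markers 4 fell, and 2 when either DIV2 library was left out, while 0 rose, or 1 without the second DIV2 library, with sums of 16.5 and 11.9 CPM at DIV2, against 28.0 and 22.6 CPM at DIV0. No marker of these lists was at 0 in both libraries of a group.

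**Figure D4:**
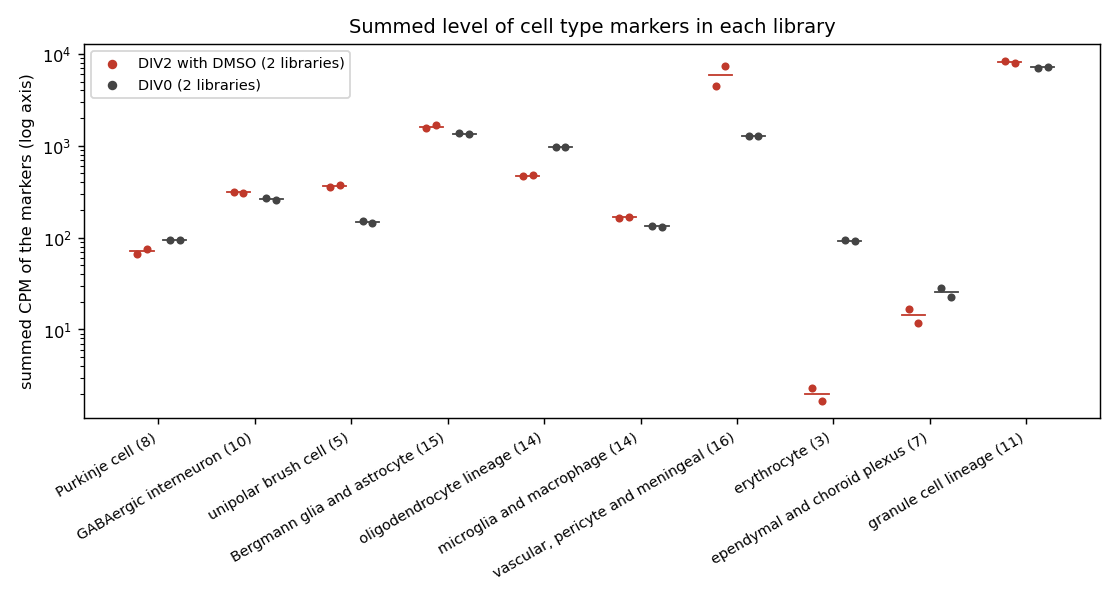
Summed CPM (log axis) of the markers of each cell type in each DIV2 and DIV0 library. The sum of the vascular, pericyte and meningeal markers is higher at DIV2, with 7300 CPM in the second library and 4456 CPM in the first. Of these 16 markers 11 fell and 4 rose. The sums of erythrocyte and oligodendrocyte lineage markers are lower.

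Extracellular matrix and actin genes rose in 23 of 25 cases (median 1.98). Fn1, fibronectin, had 880.1 and 1478 CPM at DIV2, against 195 and 191 CPM at DIV0 (log2 fold change 2.61 ± 0.30). Acta2, smooth muscle actin, had 141 and 266 CPM at DIV2, against 2.86 and 3.504 CPM at DIV0 (log2 fold change 5.97 ± 0.51, adjusted p = 0.00039). Tagln, another gene of contractile cells, had 79.6 and 136 CPM at DIV2, against 5.45 and 4.76 CPM at DIV0. Vim, vimentin, had 520.2 and 679 CPM at DIV2, against 339 and 331 CPM at DIV0. In each of these genes the second DIV2 library was higher than the first, by almost 2 times for Acta2, while the DIV0 libraries were alike. The only genes that fell were Actb, with 1762 and 1890.4 CPM at DIV2, against 3305 and 3215 CPM at DIV0, and Actg1, with 2416 and 2496 CPM at DIV2, against 3358 and 3366 CPM at DIV0. Col1a1, Col1a2, Col3a1 and Pdgfrb, 3 of them members of both lists, were the only 4 of the 16 vascular, pericyte and meningeal markers that rose. Of that marker list 11 fell, and these were not all endothelial. The part of fibroblasts and mural cells in the matrix genes was not tested.

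Among genes whose higher group averaged 10 CPM or more, the 10 largest rises by fitted change include synaptic, matrix and muscle genes. Phyhip, which encodes an interaction partner of the peroxisomal enzyme PHYH, led them, with 150.2 and 161 CPM at DIV2, against 0.714 and 1.12 CPM at DIV0 (log2 fold change 7.34 ± 0.12, adjusted p = 3.7e-15). Gabrd followed. Amer3, of the APC-binding Amer family, had 174 and 175 CPM at DIV2, against 1.82 and 1.84 CPM at DIV0 (log2 fold change 6.57 ± 0.09). Rgs8, a regulator of G protein signalling, had 63.6 and 73.1 CPM at DIV2, against 1.23 and 0.584 CPM at DIV0. Mybpc3, known as a myosin-binding protein of heart muscle, had 304 and 267 CPM at DIV2, against 4.02 and 3.998 CPM at DIV0 (log2 fold change 6.15 ± 0.09, adjusted p = 2.8e-15). It was also high in TRAP libraries, with 444 ± 24.8 CPM at P12 and 145 ± 32.97 CPM at P7 (SD, n = 5 each). Lrrc3b, Sla and Col8a1 completed the 10 with Acta2 and S100a4. Lrrc3b had 17.9 and 18.9 CPM at DIV2, against 0.454 and 0.225 CPM at DIV0. Sla had 48.9 and 45.7 CPM at DIV2, against 0.714 and 1.03 CPM at DIV0. Col8a1 had 23.6 and 40.7 CPM at DIV2, against 0.519 and 0.674 CPM at DIV0.

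The 10 largest falls above the same level include immediate early, hedgehog, endothelial and blood genes and a few inflammatory signals. Fosb led them. Cxcl2, a chemokine, had 0 and 1 counts at DIV2, against 166 and 252 counts at DIV0. Il1a, which encodes interleukin 1 alpha, had 1 and 3 counts at DIV2, against 226 and 323 counts at DIV0. Slc38a5, a glutamine transporter, had 3 and 1 counts at DIV2, against 300 and 442 counts at DIV0, and Tmem252 had 2 and 0 counts at DIV2, against 159 and 265 counts at DIV0. Usp44, a deubiquitinase of the spindle checkpoint, had 6 and 2 counts at DIV2, against 218 and 322 counts at DIV0. The remaining places were taken by Gli1, Cldn5, Hbb-bs and Atoh1.

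A small set of genes was at or near the limit of detection in one group. With at most 3 counts in each DIV0 library and at least 5 CPM in each DIV2 library there were 8 genes. The named ones besides Gabra6 were S100a4, Aspg, Cnfn, Bhlha9, Pdyn and Ly6d. S100a4, a calcium-binding protein of fibroblasts and immune cells, had 341 and 171 counts at DIV2, against 2 and 3 counts at DIV0. Pdyn, the dynorphin precursor, had 140 and 91 counts at DIV2, against 2 and 0 counts at DIV0. Bhlha9 had 153 and 86 counts at DIV2, against 0 and 3 counts at DIV0, and was also found in TRAP libraries, with 29.3 ± 2.26 CPM at P12 and 21.6 ± 0.826 CPM at P7 (SD, n = 5 each). In the other direction there were 6 genes, Cxcl2, Il1a, Il1b, Slc38a5, Tmem252 and Hbb-b2. Il1b, which encodes interleukin 1 beta and averaged under 10 CPM, had 1 and 2 counts at DIV2, against 96 and 122 counts at DIV0. Hbb-b2, a globin gene also under 10 CPM, had 0 and 0 counts at DIV2, which allows up to 0.136 and 0.198 CPM (3 counts on the TMM scale), against 134 and 169 counts at DIV0. Reads carry no molecular identifiers, so these limits cover counting error only.

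The 10 genes with most reads differed in part between the groups. Tuba1a, a neuronal alpha tubulin, was first at DIV2, with 5705 and 5338 CPM at DIV2, against 3979 and 4042 CPM at DIV0 (log2 fold change 0.46 ± 0.05). Eef1a1 was first at DIV0. Col1a1, Nrep, Zbtb18, Zic1 and Ddx5 were among the 10 at DIV2 and not at DIV0. Col1a1, a collagen of fibroblasts and mural cells, had 2132 and 3652 CPM at DIV2, against 117 and 114 CPM at DIV0. Its second DIV2 library was higher than the first, and both were above the DIV0 libraries. Nrep, a neuronal regeneration protein, had 2871 and 2848 CPM at DIV2, against 761 and 760.0 CPM at DIV0 (log2 fold change 1.91 ± 0.04, adjusted p = 3.4e-14). Zbtb18, a transcriptional repressor that acts in neuronal differentiation, had 2588 and 2541 CPM at DIV2, against 839 and 818 CPM at DIV0. Actb, Nfib, Eef2, Ptma and Tubb5 were among the 10 at DIV0 and not at DIV2, and all 5 fell. Ptma had 912 and 964 CPM at DIV2, against 2693 and 2793 CPM at DIV0. Tubb5 had 1451 and 1461 CPM at DIV2, against 2512 and 2541 CPM at DIV0. Eif4g2 was among the 10 in both groups and did not pass, with 2586 and 2610.3 CPM at DIV2, against 2858 and 2806 CPM at DIV0 (log2 fold change -0.13 ± 0.05, adjusted p = 0.052).

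The step from DIV0 to DIV2 was set against the next step, DIV2 to DIV5 with DMSO, in a contrast that takes account of the DIV2 libraries they share. The first step was the more positive in 5318 genes (33.3%) and the more negative in 4987 (31.2%). All 42 mitosis and all 41 replication genes were more negative in the first step. Mki67 had 1305 ± 29.6 CPM at DIV0, 52.99 ± 14.3 CPM at DIV2 and 97.7 ± 3.67 CPM at DIV5 (SD, n = 2 each). The Shh list moved both ways in the second step: 10 of its 18 genes were higher at DIV5 than at DIV2, against 31.1% of all genes, and 6 were lower, against 35.7%. Ccnd2 had 959 ± 5.74 CPM at DIV0, 88.6 ± 15.3 CPM at DIV2 and 267 ± 37.6 CPM at DIV5, and the steps differed by -5.04 on the log2 scale (adjusted p = 5.1e-06). Mycn fell further, with 188 ± 0.538, 42.1 ± 3.48 and 21.6 ± 0.477 CPM at DIV0, DIV2 and DIV5 (log2 fold change at DIV5 over DIV2 -0.97). Atoh1 went on falling, with 53.1 ± 1.05, 0.828 ± 0.0498 and 0.0734 ± 0.02102 CPM at DIV0, DIV2 and DIV5, and its steps did not differ past the threshold (adjusted p = 0.064).

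No vesicle gene was called higher in the second step, while mature granule cell genes were divided. In 29 of 30 vesicle genes and 22 of 25 mature granule cell genes the first step was the more positive, against 33.3% of all genes. Of the 30 vesicle genes 25 were lower at DIV5 than at DIV2 and 0 were higher, against 35.7% and 31.1% of all genes. Of the 25 mature granule cell genes 10 were lower and 12 were higher at DIV5 (median log2 fold change 0.02). Syt4 had 12.1 ± 2.09 CPM at DIV0, 412 ± 38.1 CPM at DIV2 and 312 ± 9.41 CPM at DIV5. Dcx had 1119 ± 0.876, 1700.2 ± 40.1 and 337 ± 7.001 CPM at those times, highest at DIV2, and its steps differed by 2.94 (adjusted p = 1.8e-11). Gabrd and Grm4 rose in both steps. Gabrd had 0.352 ± 0.05297, 55.7 ± 0.316 and 103 ± 4.86 CPM. Cholesterol genes turned over as well, with 23 of 28 lower and 4 higher at DIV5 than at DIV2. Hmgcs1 had 686 ± 15.8 CPM at DIV0, 1398 ± 36.5 CPM at DIV2 and 262 ± 5.16 CPM at DIV5. In the second step all 24 interferon genes and all 14 microglia markers rose, against 31.1% of all genes, and granule lineage markers summed to 3989 and 4102 CPM at DIV5, against 8358 and 8048 CPM at DIV2. The first step was the more negative in 21 of the interferon genes and 12 of the microglia markers, against 31.2% of all genes. The part of the change in cell makeup in these values was not tested.

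The first culture step was also set against the in vivo interval from P7 to P12 in Neurod1 TRAP libraries, with which it shares no library. RNA kind and preparation differ between the experiments and cancel only as far as they act alike at both times. In the same 15978 genes P12 was higher than P7 in 5401 (33.8%) and lower in 5332 (33.4%). Of the 5809 genes that rose in culture 3196 also rose in vivo (55.0% of the culture list, 59.2% of the in vivo list) and 937 fell there (16.1% and 17.6%). Of the 5589 that fell in culture 3292 fell in vivo (58.9% and 61.7%) and 905 rose (16.2% and 16.8%). The test of the difference, in a fit of 23 libraries and 16664 genes, found culture the more positive in 4503 genes (27.0%) and the more negative in 4311 (25.9%).

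**Figure D5:**
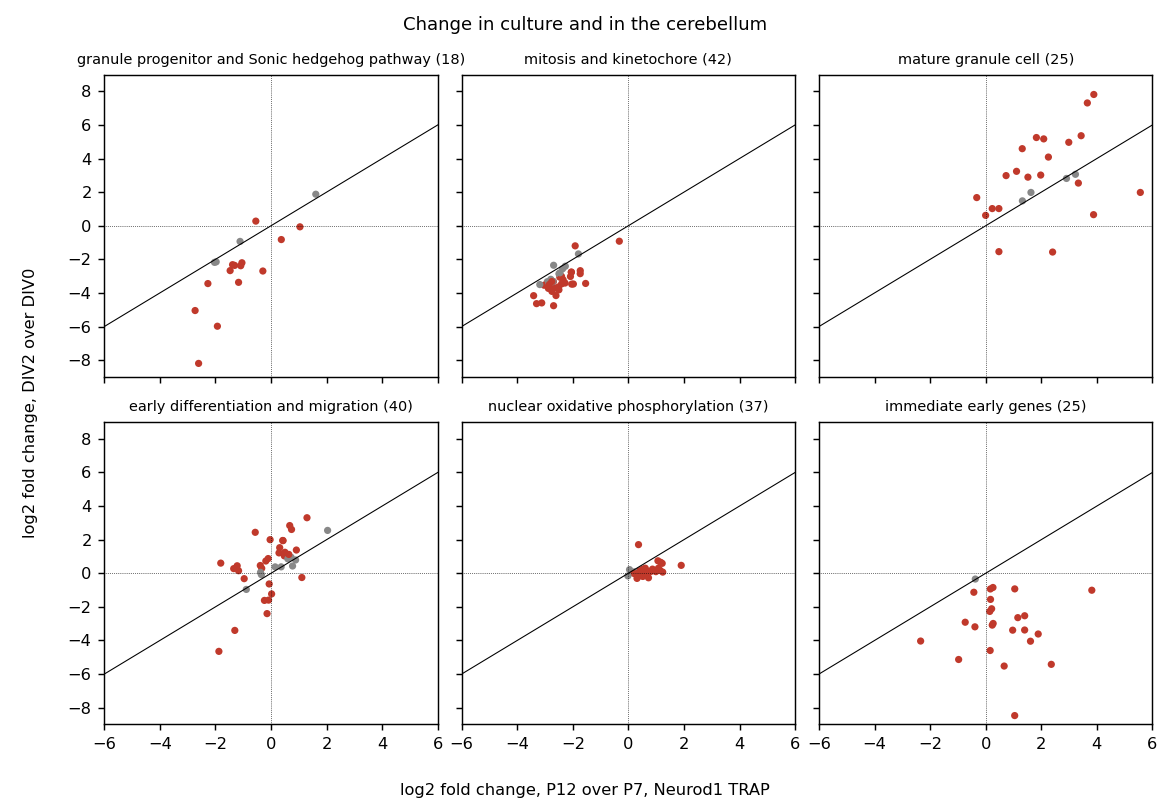
Log2 fold change at DIV2 over DIV0 (vertical axis) against P12 over P7 in Neurod1 TRAP libraries (horizontal axis) for the members of 6 gene lists, with genes past the test of the difference in red, the others in grey and a line at equal change. Mitosis genes lie below 0 on both axes, and immediate early genes lie below 0 in culture and on both sides of 0 in vivo.

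Mitosis and replication genes and most progenitor genes fell in both settings, and most of the mitosis genes fell further in culture. All 42 mitosis genes and all 41 replication genes fell in vivo as well. The change in culture was the more negative in 28 and 15 of them, against 25.9% of all genes. It was the more positive in 1 and 4, against 27.0%, and the rest did not differ past the threshold. Top2a had a log2 change of -4.16 in culture and -3.41 in vivo (difference -0.75, adjusted p = 0.0025). Of the 18 Shh genes 14 fell and 3 rose in vivo, against 33.4% and 33.8% of all genes. The change in culture was the more negative in 13 of the 18 and the more positive in 1. Gli1 had 4.97 ± 1.83 CPM at P12 and 30.6 ± 3.06 CPM at P7 (SD, n = 5 each), so its fall in vivo was smaller (-2.61, difference -5.59, adjusted p = 3.2e-10). Mycn and Ezh2 had changes in vivo of -1.97 and -1.63, and neither differed from culture past the threshold (adjusted p = 0.31 and 0.33).

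Synapse and axon genes differed between the settings. The change in culture was the more positive in 24 of 30 vesicle genes, against 27.0% of all genes. Syt1 rose by 2.24 in culture and by 0.64 in vivo (difference 1.60, adjusted p = 7.3e-08), while Snap25 rose by 2.38 and 2.14 with no difference past the threshold (adjusted p = 0.12). Some genes that rose in culture fell in vivo. Dcx had 211 ± 19.03 CPM at P12 and 739.5 ± 55.9 CPM at P7 (difference 2.41, adjusted p = 2.3e-11), and Mapt had 667 ± 46.5 CPM at P12 and 989 ± 87.7 CPM at P7 (difference 3.01, adjusted p = 1.9e-14). Grm5 rose in culture and had 49.6 ± 4.42 CPM at P12 and 50.1 ± 7.41 CPM at P7, without a change past the threshold in vivo. Gabra6 had 748 ± 67.5 CPM at P12 and 50.4 ± 14.9 CPM at P7 in the TRAP libraries. Cbln3, a partner of Cbln1, rose in both, by 2.54 in culture and 3.33 in vivo, and less in culture (difference -0.80, adjusted p = 0.0016).

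Immediate early and mitochondrial genes also differed from the in vivo interval. Of 25 immediate early genes 24 were more negative in culture, against 25.9% of all genes. Egr1 had 17.02 ± 4.75 CPM at P12 and 3.28 ± 0.571 CPM at P7, a log2 change of 2.36, against -5.42 in culture (difference -7.78, adjusted p = 3.4e-11). Of 37 oxidative phosphorylation genes 35 rose in vivo and 33 had a more negative change in culture, against 33.8% and 25.9% of all genes. Cox8a had 1358 ± 71.99 CPM at P12 and 363 ± 34.4 CPM at P7. It rose by 1.90 in vivo, against 0.47 in culture (difference -1.43, adjusted p = 1.4e-08). Atp5b rose by 0.53 in vivo and changed by -0.16 in culture (difference -0.69). Of the 45 ribosomal protein genes 33 fell and 1 rose in vivo, against 33.4% and 33.8% of all genes. The change in culture was the more negative in 26 of the 45. Extracellular matrix genes were more positive in culture in 20 of 25 cases, against 27.0% of all genes. Among them was Col1a1, which had 5.898 ± 2.63 CPM at P12 and 3.06 ± 0.764 CPM at P7.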

How the data were processed

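Polyadenylated RNA was sequenced as 75-base single-end reads, per the labels' protocols. The authors deposited whole-number estimated counts for each gene, without normalization. Salmon 0.8.2 and mm10 are named in the submitters' processing notes with no role for either, and the annotation is not given in the sources used here. Of 24100 Entrez identifiers 24052 were matched to a symbol. The 48 others (0.0457% of culture counts) were kept in the fits and not named.

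Libraries were grouped by their labels. The 8 culture libraries were fitted with edgeR 4.0.16 in R 4.3.3 (filterByExpr with minimum count 10 and minimum total 15, TMM scaling, robust quasi-likelihood tests, 4 residual degrees of freedom, biological coefficient of variation 0.0542). The in vivo contrast was made in a joint fit of 23 libraries, the 8 of culture and 15 of Neurod1 TRAP at P7, P12 and P21. P-values were adjusted over all genes of a comparison by the Benjamini-Hochberg method, with calls under 0.05, two-sided. The fit was tested on simulated counts with known changes. The 37 gene lists hold 845 genes, of which 841 are in the table and 828 passed the filter. Of the others 13 were too low, and Ctgf, Cyr61, Hba-a1 and Hbb-bt were not found under these symbols. Members and lists were chosen with earlier results of these data known, so list counts stand beside the share of all genes and not beside a test.

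Named genes are 14 anchors (Atoh1, Gli1, Mycn, Ccnd1, Ccnd2, Mki67, Cdkn1b, Cdkn1c, Ezh2, Ezh1, Neurod1, Rbfox3, Dcx, Gabra6), list members by smallest adjusted p or for their role, the 10 called genes with the greatest fitted rise and the 10 with the greatest fall (higher group averaging 10 CPM or more, libraries of the groups not overlapping, no clone-type symbol), up to 10 genes each way with at most 3 counts per library in one group and at least 5 CPM in the other, and the 10 most abundant genes of each group. Gene coordinates and promoters are from RefSeq on GRCm38.p6. Alternatives were library-size scaling, DESeq2 1.42.0, no filter, a stricter filter, the 4 libraries alone, a replicate block, leaving out each library, and a 2-fold minimum. Some list members are counted and are not reported here by name.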

Additional observations from a re-analysis of the deposited data

Results flagged for a closer look

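The change over the first 2 days of culture differed from the P12 against P7 change in Neurod1 TRAP libraries, by a test of the difference itself, in 10 of the 14 genes that were named regardless of their values, 1 of which, Gabra6, rests on 1 count in the DIV0 libraries. Differences are culture minus in vivo on the log2 scale. They were -4.05 for Atoh1, -5.59 for Gli1, -1.15 for Ccnd1, -1.17 for Ccnd2 and -1.33 for Mki67, which fell in both settings and further in culture. Cdkn1b (-0.33) fell slightly in culture and did not change past the threshold in vivo. Cdkn1c (0.80) fell in both and by less in culture. Ezh1 (-0.68) rose in vivo and did not pass in culture. Dcx (2.41) rose in culture and fell in vivo. Adjusted p-values from edgeR's quasi-likelihood test for these 9 genes ran from 2.3e-11 for Dcx to 0.013 for Cdkn1c. Gabra6 rose in both settings. Its fitted difference of 3.94 (adjusted p = 0.021, edgeR) is neither a size nor a bound, since the fitted culture change was 6.63 without the second DIV0 library and 10.25 without the first, the library that holds its only count at DIV0. For Mycn, Ezh2, Neurod1 and Rbfox3 the difference did not pass. RNA kind, cell makeup and the promoter of the TRAP line differ between the experiments, and their part in these differences was not tested.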

How the results depend on the processing

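The counts of genes higher and lower at DIV2, 5809 and 5589, stayed within 1.5 times under each alternative except the added 2-fold minimum, which left 2678 higher and 2198 lower. They were 5602 and 5766 with library-size scaling, 4981 and 5255 with DESeq2, 5568 and 5946 without a filter, 5189 and 5732 with a stricter filter, and 5623 and 5547 in the 4 libraries alone. Leaving out 1 library gave 4801 to 5203 higher and 5331 to 5934 lower genes. Of the 11398 calls 89.2% to 98.2% remained under the other scaling, test and filters and in the 4 libraries alone, and 0 changed direction. The share was lower in some of the fits without 1 library. The 2-fold minimum is not part of this range. Same-numbered libraries did not deviate together (correlation of deviations -0.03 for DIV2 with DIV0). The DIV0 libraries were close to sampling noise, so this correlation cannot decide whether the numbers pair the libraries. With a replicate block the counts were 5722 and 5504, those of the step contrast 5224 and 4884, and those of the in vivo contrast 4528 and 4386. Chosen after seeing the data, summing the DIV0 libraries as 1 sample gave 4920 and 5783, and crossing the DIV5 numbers, given a correlation of -0.16 between DIV2 and DIV5, gave 5313 and 4996 for the step contrast.

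For the step contrast (5318 and 4987), library-size scaling moved the median of all genes by -0.17 and gave 4517 and 5835, no filter gave 4986 and 5368, and leaving out 1 library gave 4231 to 5221 and 4761 to 5465. For the in vivo contrast (4503 and 4311) the counts were 4777 and 4021 with library-size scaling, 4575 and 3931 without a filter, and 3923 to 4652 and 3619 to 4332 without 1 library. Among counts of list members 789 stayed within 1.5 times and 25 did not, mostly counts of under 10 genes. With 2 libraries a group the spread rests on few degrees of freedom, and depth limits the genes under about 1 CPM.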
